A study of Mus musculus with 15 samples.

Results

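The genes described here are 36 RNA-binding proteins that set how neuronal transcripts are spliced, stabilised or translated: the RBFOX, NOVA, CELF, ELAVL, PTBP, KHDRBS and MBNL families, SRRM4, QKI, the Musashi proteins and 8 serine/arginine-rich (SR) splicing factors. They were chosen by name, and 35 of the 36 had a row among the 21889 genes of the count tables. The exception, Ptbp1, was measured through 1 start-site model. Poly(A) RNA had been sequenced from 15 mouse cerebellar samples, 3 in each of 5 groups. Granule neuron precursors, which divide in the outer layer of the cerebellum before becoming granule neurons, came from embryos at E15.5 with the genotype label Math1-GFP and from wild-type pups at P1, P7 and P14. The fifth group, MB, was medulloblastoma cells from Ptch1 heterozygous mice, with no age given. Ptch1 is the Hedgehog receptor whose loss drives this tumour, and Math1 is the transcription factor that marks granule precursors. All samples went through Percoll fractionation. The labels do not say whether the GFP was used for sorting, how many animals a sample held, or whether replicates came from separate animals, so p-values measure the spread between these samples, which may be technical. Genotype and age cannot be told apart in any comparison with E15.5. In comparisons with MB, the Ptch1 genotype, the tumour state and the unknown age cannot be told apart.

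Splicing regulators of these families bind short RNA motifs in and beside exons and set which exons a cell keeps. In developing neurons, PTBP1 holds back neuronal exons in dividing precursors, its paralogue PTBP2 takes over as neurons form, and RBFOX, MBNL and CELF proteins then shape the mature splicing program. ELAVL proteins stabilise neuronal messages, and QKI and MBNL1 are also abundant in glia.

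Libraries held 12597472 to 43443132 reads counted to genes. Levels are given as CPM, read counts scaled to the TMM-adjusted library total, and changes as log2 fold changes ± SE from edgeR's quasi-likelihood test, called at an adjusted p (FDR) under 0.05 over the 15259 genes tested. All 35 genes with a row passed the filter on low counts. Markers of other cell types differed between groups. The summed level of 10 astroglial markers was 412 to 557 CPM at E15.5 and 3220 to 4780 at P1, and 10 of 10 rose. That of 10 oligodendrocyte-lineage markers was 96.5 to 121 at E15.5, 642 to 4300 at P1, with P1 replicate 3 the highest, and 6670 to 7200 at P14. The 7 GABAergic interneuron markers summed to 640 to 829 CPM at E15.5 and 343 to 386 at P1, and 6 of 7 fell. In MB, vascular and mural markers summed to 28.1 to 44 CPM against 505 to 725 at P7. In bulk RNA, fewer cells of a type and less RNA per cell cannot be told apart. A total of 4 libraries stood apart from their group in several of these genes: E15.5 replicate 3, P1 replicate 3, P7 replicate 3 and MB replicate 1. Over all genes, MB replicate 1 and E15.5 replicate 3 departed most, with median absolute log2 deviations of 0.561 and 0.45 from the other 2 libraries of the group, against 0.0899 to 0.341 elsewhere. Counts of calls without these 4 libraries, a setting chosen after seeing the data, stand beside the main counts below. Leaving out libraries that stood apart lowers the spread in the genes where they did, by construction. Over all genes P7 replicate 3 (0.299) was no farther from its group than P7 replicate 2 (0.303). The 4 were picked partly by their values in the genes described here, which favours calls among those genes in that fit. The libraries also fall into 2 counting sets: in E15.5 replicates 1 and 3, P7 replicates 1 to 3 and MB replicate 1, the gene Tsnax held at most 0.273% of the reads of its own transcript, and in all others at least 92.4%. P7 lies wholly in the first set, and P1 and P14 in the other, so set and age cannot be told apart in P7 against P1 or P14 against P7. E15.5 has only replicate 2 in the other set, so set and age are partly mixed when P1 or P14 is compared with E15.5. MB has replicate 1 in the first set and replicates 2 and 3 in the other. Set and tumour are thus partly mixed in MB against P7 and against P14. In every fit without MB replicate 1, MB lies wholly in the other set. Set and tumour then cannot be told apart in MB against P7.

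The largest changes with age lay between E15.5 and the later ages. At P14, Mbnl2, Rbfox3, Qk, Mbnl1 and Rbfox1 were 2.74 to 5.28 times their level at E15.5, while Khdrbs2, Khdrbs3, Ptbp2, Elavl2 and Celf3 were lower by 2.05 to 5.14 times. Of 35 genes, 16 were called, 6 higher and 10 lower, and over all genes tested 50.9% were called, 26.7% higher and 24.2% lower. The called share among the regulators was thus near that of all genes. Among the 16, Srsf2 is not a usable level: its gene row held only 0.531 to 2.23% of the reads of its transcript, and in the transcript table its change was -0.15 ± 0.19. Without it, 15 of 34 were called, 5 higher and 10 lower, with a median change of -0.23 against -0.03 over all genes. Over the 4 ages tested together, 15 of 34 were called, where 55.7% of all genes were. By P1, 13 of 34 had already changed, 5 higher and 8 lower, where 46.3% of all genes were called, 25.4% higher and 20.9% lower. With upper-quartile scaling, which shifts the median of all genes to 0.17, the split of the 35 at P1 was 7 higher and 6 lower. In the main fit it was 6 and 8. Over all genes 45.5% were called with that scaling, 29.4% higher and 16.1% lower. Without the 4 libraries that stood apart, 21 of 35 were called at P1, 8 higher and 13 lower, where 52.6% of all genes were called, 27.4% higher and 25.2% lower. In the same fit 25 of 35 were called at P14, 7 higher and 18 lower, where 61.7% of all genes were, 29.8% higher and 31.9% lower. These counts of 35, like that with upper-quartile scaling, include the unusable Srsf2 among the higher calls. They do not compare directly with the counts of 34. The share called went up over all genes as well. The choice of the 4 libraries favours calls among the regulators, so the 2 rises cannot be compared.

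**Figure D1:**
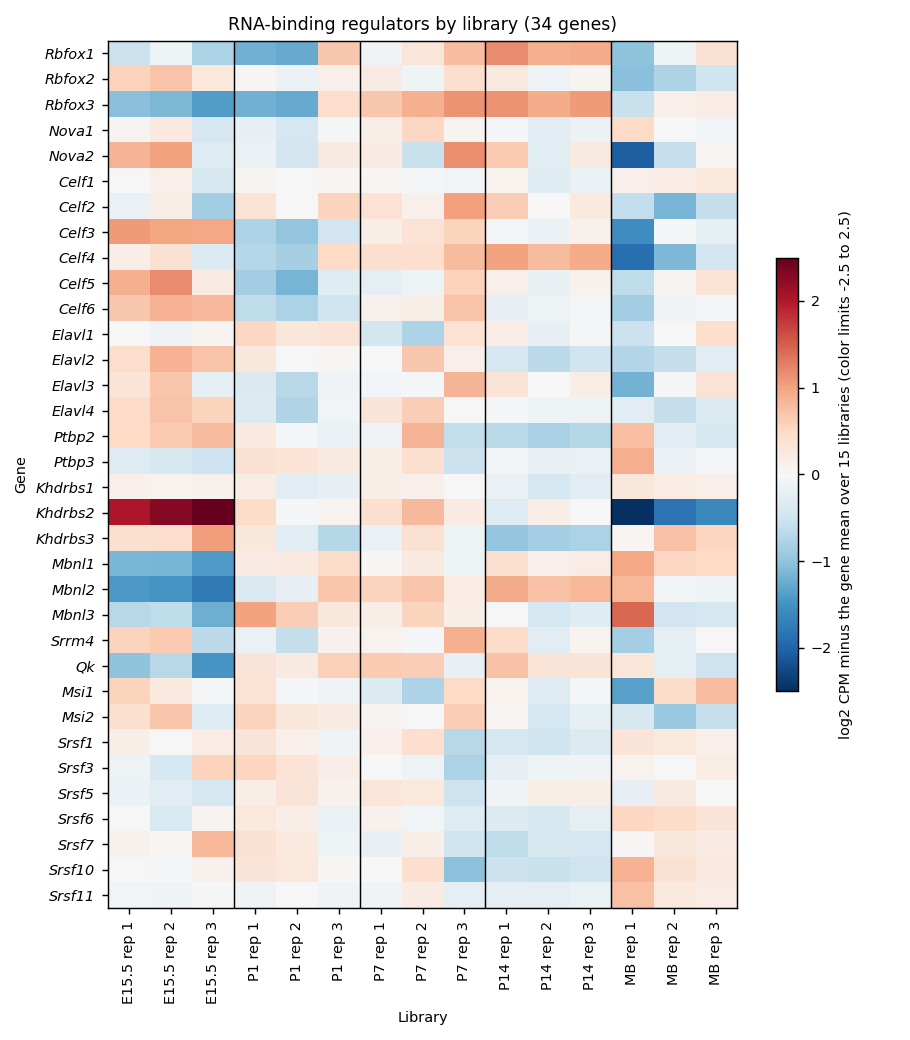
Each row is one of 34 genes (Srsf2 left out) and each column a library; color is log2 CPM minus the gene's mean over the 15 libraries, with color limits at -2.5 and 2.5. Khdrbs2 is high in the E15.5 libraries and low in the MB libraries, Mbnl1, Mbnl2 and Qk are low in the E15.5 libraries, and P1 replicate 3 differs from the other P1 libraries in Rbfox1, Rbfox3, Celf4 and Mbnl2.

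The 250 bases before the RefSeq start site are shown for the 6 members named by size of change whose RefSeq start lay within 20 bases of the start of a model in the deposited tables, since each of these genes changed at least 2-fold between E15.5 and P14. Celf4 was left out of this choice. Coordinates are of GRCm38.p6, sequences run 5′ to 3′ on the gene's strand, and capitals mark CpG dinucleotides. The first 3 below include Mbnl2 and Rbfox3, which rose, and Khdrbs2, which fell.
Mbnl2, chr14:120275419-120275668, plus strand: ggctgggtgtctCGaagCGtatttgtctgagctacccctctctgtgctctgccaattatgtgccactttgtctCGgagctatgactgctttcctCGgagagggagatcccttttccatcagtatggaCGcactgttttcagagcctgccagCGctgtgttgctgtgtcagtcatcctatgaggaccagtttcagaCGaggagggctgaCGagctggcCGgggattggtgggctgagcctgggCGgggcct
Rbfox3, chr11:118761042-118761291, minus strand: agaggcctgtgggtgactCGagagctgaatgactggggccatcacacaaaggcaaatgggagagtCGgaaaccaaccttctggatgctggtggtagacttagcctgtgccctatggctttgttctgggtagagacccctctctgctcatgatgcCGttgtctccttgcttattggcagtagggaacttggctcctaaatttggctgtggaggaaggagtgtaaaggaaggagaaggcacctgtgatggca
Khdrbs2, chr1:32172472-32172721, plus strand: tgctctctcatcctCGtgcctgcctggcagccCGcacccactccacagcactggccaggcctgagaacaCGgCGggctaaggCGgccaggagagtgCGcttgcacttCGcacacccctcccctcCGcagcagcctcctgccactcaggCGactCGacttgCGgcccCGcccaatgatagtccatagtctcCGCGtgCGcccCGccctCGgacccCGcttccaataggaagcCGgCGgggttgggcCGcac
Qk, chr17:10319362-10319611, minus strand: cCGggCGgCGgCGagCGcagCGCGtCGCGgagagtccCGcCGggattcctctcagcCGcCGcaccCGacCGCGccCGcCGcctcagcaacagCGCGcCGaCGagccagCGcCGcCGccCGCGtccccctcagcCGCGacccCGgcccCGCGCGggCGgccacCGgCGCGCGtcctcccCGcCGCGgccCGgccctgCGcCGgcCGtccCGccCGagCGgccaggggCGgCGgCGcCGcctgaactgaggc
Ptbp2, chr3:119783389-119783638, minus strand: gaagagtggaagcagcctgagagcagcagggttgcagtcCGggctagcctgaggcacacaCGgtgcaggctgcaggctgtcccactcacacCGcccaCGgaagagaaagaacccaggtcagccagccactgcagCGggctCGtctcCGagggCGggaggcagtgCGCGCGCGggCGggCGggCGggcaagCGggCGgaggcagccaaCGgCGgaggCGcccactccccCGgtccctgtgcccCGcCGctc
Elavl2, chr4:91372070-91372319, minus strand: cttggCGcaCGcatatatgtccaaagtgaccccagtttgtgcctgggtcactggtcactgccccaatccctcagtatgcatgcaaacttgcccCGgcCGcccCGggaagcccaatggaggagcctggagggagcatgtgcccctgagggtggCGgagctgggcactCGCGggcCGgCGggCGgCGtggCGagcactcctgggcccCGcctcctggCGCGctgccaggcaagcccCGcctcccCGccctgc

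Among the genes that rose, the window of Qk held 52 CpG dinucleotides, that of Mbnl2 10 and that of Rbfox3 3. Among those that fell, Khdrbs2 had 21, Ptbp2 23 and Elavl2 18. The median over 32851 RefSeq windows of the same length was 6. On either strand, none of the 6 windows held the E-box CAGCTG, which is in 13% of all windows. None held the E-box CAGATG, which is in 14.4%. None held the TATA motif TATAAA, which is in 12.4%. None held the GLI motif GACCACCCA, which is in 0.225%. Absence says only that these letters are not in these windows.

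MBNL proteins, named for muscleblind, drive the switch from fetal to adult exons. In replicates 1 to 3 the level of Mbnl2 (mm9 chr14:120674891-120830919, plus strand) was 34.6, 33.2 and 27.5 CPM at E15.5, 73.2, 81.8 and 151 at P1, 137, 153 and 107 at P7, 179, 156 and 168 at P14, and 167, 88.9 and 86.6 in MB. Every later library of normal cells lay above the 3 E15.5 libraries, and P1 replicate 3 stood above the other P1 libraries, within the range of P7. Mbnl2 rose by 1.68 ± 0.29 at P1 (FDR 0.000299) and by 2.40 ± 0.30 at P14 (FDR 1.25e-05) against E15.5. The level of Mbnl1 was 37.8, 37.2 and 31.1 CPM at E15.5, 95.7, 99 and 114 at P1, 85.7, 97.7 and 76.4 at P7, 110.2, 91.4 and 94.3 at P14, and 163, 120.1 and 117 in MB. It had reached its postnatal level at P1, with a rise of 1.54 ± 0.17 (FDR 7.75e-06), and stood 1.48 ± 0.17 above E15.5 at P14 (FDR 7.24e-06). The count ratio of Mbnl2 to Mbnl1 within a library was 0.887 to 0.916 at E15.5, 0.765, 0.826 and 1.32 at P1, 1.4 to 1.6 at P7 and 1.63 to 1.78 at P14. Mbnl3, the least abundant of the family, rose at P1 by 1.51 ± 0.43 (FDR 0.0103), and its level was 3.94 ± 0.826 CPM at E15.5 and 11.1 ± 2.76 at P1 (SD, n = 3). That call was lost in 1 of the 6 fits that left out a library.

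Qk encodes QKI, a STAR-domain protein that controls splicing and message stability in glia and neural progenitors. Its level (mm9 chr17:10403055-10512245, minus strand) was 157, 193 and 113 CPM at E15.5, 392, 367 and 472 at P1, 489, 479 and 276 at P7, 517, 393 and 393 at P14, and 386, 262 and 218 in MB. All P1, P7 and P14 libraries lay above all E15.5 libraries. Qk rose by 1.41 ± 0.27 at P1 (FDR 0.000707) and by 1.5 ± 0.27 at P14 (FDR 0.00036) against E15.5, and these calls, like those of Mbnl1 and Mbnl2, held in each of the 6 fits that left out 1 library. Astroglial, oligodendrocyte, vascular and choroid plexus markers rose at the same step, 10 of 10, 10 of 10, 8 of 8 and 6 of 6, and their part in these rises was not tested.

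RBFOX proteins bind UGCAUG beside exons, and Rbfox3 encodes the neuronal nuclear antigen NeuN. The level of Rbfox3 (mm9 chr11:118351078-118622355, minus strand) was 123, 116 and 96.5 CPM at E15.5, 110.5, 105 and 343 at P1, 406, 471 and 551 at P7, 551, 484 and 526 at P14, and 173, 278 and 289.6 in MB. Libraries P1 replicates 1 and 2 were still at the E15.5 level, while P1 replicate 3 lay between them and the P7 libraries. Rbfox3 rose by 2.22 ± 0.37 from E15.5 to P14 (FDR 0.000185). It was also the only one of the 35 called between P1 and P14, at 1.48 ± 0.36 (FDR 0.0246), where 8.94% of all genes were called, 3.63% higher and 5.31% lower. That call held at 2.27 without P1 replicate 3 and was lost without any of the other 5 libraries, with values of 1.2 to 1.53. The level of Rbfox1 (mm9 chr16:6809315-7412572, plus strand), which is neuron-enriched, was 39.3, 52.6 and 33 CPM at E15.5, 24.6, 23.7 and 91.2 at P1, 53.2, 70.2 and 97.5 at P7, 128, 106 and 108 at P14, and 28.4, 51.7 and 74.1 in MB. It rose by 1.46 ± 0.46 from E15.5 to P14 (FDR 0.0155), a call lost without E15.5 replicate 3 (1.24). At P1, Rbfox1 was not called, and without the 4 libraries that stood apart it was at -0.96 and called lower. Of 10 granule neuron markers, 5 rose and 1 fell from E15.5 to P14. Their sum was 6400 to 7490 CPM at E15.5, 3290, 2790 and 5370 at P1, and 6010 to 6910 at P14. Gabra6, a receptor subunit of mature granule neurons, had 1.12, 12.5 and 102 CPM in the P1 libraries, highest in replicate 3. The part of these markers in the Rbfox1 and Rbfox3 values was not tested.

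Rbfox2, the broadly expressed member (mm9 chr15:76909421-77137483, minus strand), had its highest mean level at E15.5. Its level was 706, 777 and 566 CPM at E15.5, 491, 429 and 519 at P1, 549, 438 and 646 at P7, 559, 434 and 494 at P14, and 231, 277 and 338 in MB. The P14 libraries lay below the E15.5 libraries without passing the test, at -0.46 ± 0.20 (FDR 0.0667), and the fall at P1 of -0.51 ± 0.20 (FDR 0.0493) was called in only 1 of 6 fits that left out a library. Within a library the count ratio of Rbfox3 to Rbfox2 was 0.149 to 0.175 at E15.5, 0.225, 0.245 and 0.661 at P1, 0.74 to 1.07 at P7 and 0.985 to 1.12 at P14. In RPKM (reads scaled to the length of the main transcript and the library total), Rbfox2 stood at 96.7 ± 14.9 at E15.5 and Rbfox3 at 36.3 ± 4.02, while at P14 the order was reversed, with 155 ± 9.94 for Rbfox3 and 70.2 ± 8.92 for Rbfox2 (SD, n = 3). Rbfox1 was the lowest of the 3 at each age, at 10.7 ± 2.47 at E15.5 and 29.5 ± 3.36 at P14.

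**Figure D2:**
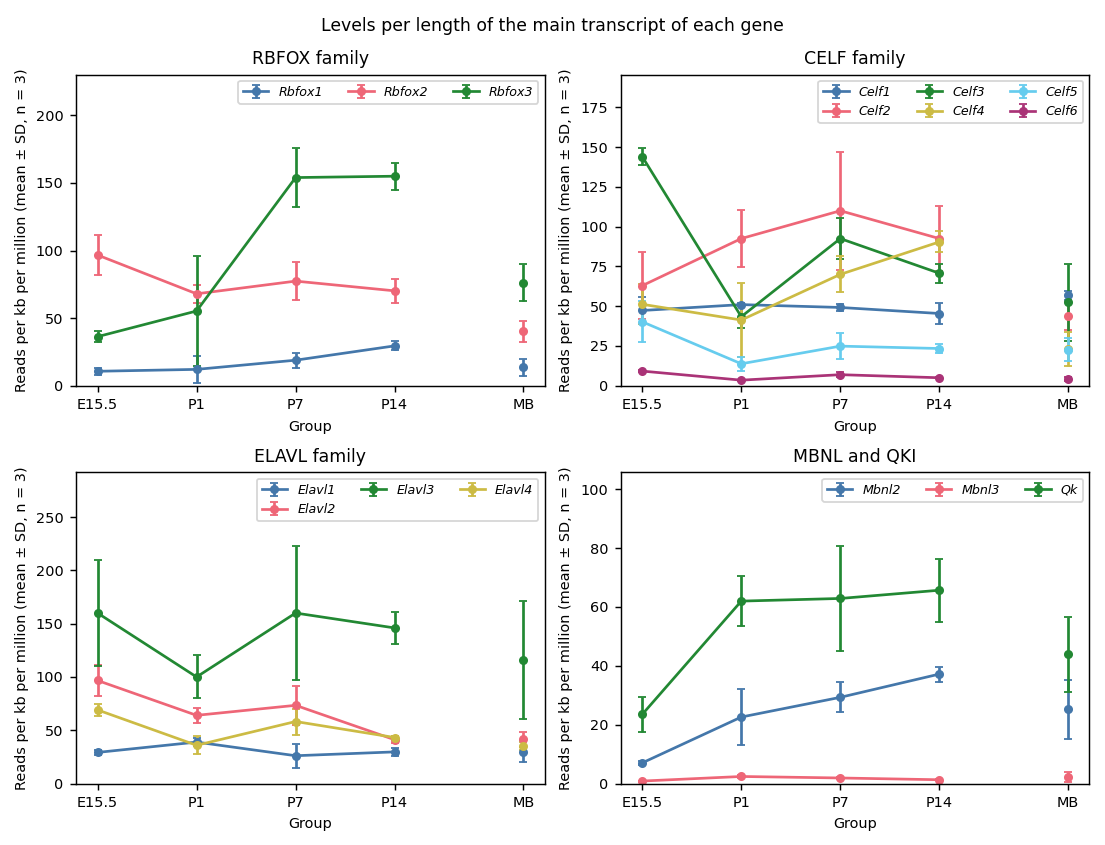
Mean level per length of the main transcript of each gene (RPKM, linear axis, bars SD, 3 libraries a group) for 4 families; lines join the 4 ages and MB stands apart. Rbfox3 goes from 36.3 at E15.5 to 155 at P14, and Celf3 from 144 at E15.5 to 43.4 at P1. Mbnl1 had no transcript in the table and is not drawn.

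KHDRBS proteins (Sam68, SLM1 and SLM2) choose exons of synaptic genes such as neurexins. The level of Khdrbs2, which encodes SLM1 (mm9 chr1:32229651-32714583, plus strand), was 30.1, 36 and 45.4 CPM at E15.5, 10.2, 7.21 and 7.84 at P1, 9.82, 13.1 and 8.55 at P7, 5.97, 8.35 and 7.35 at P14, and 0.198, 2.08 and 2.44 in MB. The E15.5 libraries lay far above every later one, and the MB libraries below them all. Khdrbs2 changed by -2.14 ± 0.48 at P1 (FDR 0.0022) and by -2.36 ± 0.49 at P14 (FDR 0.000954) against E15.5, in each fit that left out 1 library. The level of Khdrbs3, which encodes SLM2 (mm9 chr15:68758850-68923942, plus strand), was 87.4, 89.9 and 137 CPM at E15.5, 80.7, 55.9 and 40.8 at P1, 59.7, 86.9 and 61.2 at P7, 34.1, 37 and 38.6 at P14, and 69.1, 111 and 96.6 in MB. It fell by 1.52 ± 0.27 from E15.5 to P14 (FDR 0.000259), and its P14 libraries lay below all others. At P1 it stood at -0.83 ± 0.26 (FDR 0.0177), called in 3 of 6 fits that left out a library. Khdrbs1, the ubiquitous Sam68, changed less: its fall of 0.40 ± 0.16 at P14 (FDR 0.0454) was called in only 1 of 6 fits that left out a library. All 3 members of the family were thus called lower from E15.5 to P14, where 24.2% of all genes were. With upper-quartile scaling Khdrbs1 was at -0.30 and not called.

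PTBP2 represses exons of mature neurons while neurons form. The level of Ptbp2 (mm9 chr3:119421660-119486306, minus strand) was 447, 497 and 547 CPM at E15.5, 375, 303 and 282 at P1, 296, 566 and 207 at P7, 197, 179 and 193 at P14, and 529, 259.5 and 240.4 in MB. Levels at P7 were scattered, with replicate 2 as high as E15.5 and replicate 3 near P14. Ptbp2 fell by 1.39 ± 0.34 from E15.5 to P14 (FDR 0.00306). Its paralogue Ptbp3 rose by 0.73 ± 0.26 at P1 (FDR 0.0328), a call lost in each of the 6 fits that left out a library. The start-site model named by a Ptbp1 transcript may cover only part of that gene, and its use was decided after seeing the data. It had 27.7, 27.9 and 32.4 CPM at E15.5, 51, 48.8 and 33.9 at P1, 39, 37.3 and 57.8 at P7, and 32.1, 32.6 and 37.6 at P14. The change at P1, 0.60 ± 0.20 (FDR 0.0231 over 16378 models, of which 44.8% were called), was lost in 4 of 6 fits that left out a library, and P14 did not pass the test against E15.5 (0.22 ± 0.20). The count ratio of Ptbp2 to this Ptbp1 model was 15.7 to 17.4 at E15.5 and 4.99 to 6.02 at P14; it was not tested.

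ELAVL proteins bind AU-rich elements, and all but Elavl1 are mainly neuronal. The level of Elavl2 (HuB, mm9 chr4:90917454-91043154, minus strand) was 333, 449.6 and 402 CPM at E15.5, 298, 247 and 251 at P1, 248, 388 and 266 at P7, 182, 156 and 173 at P14, and 148, 162 and 202 in MB. It fell by 1.21 ± 0.20 from E15.5 to P14 (FDR 0.000146), with no overlap between the 2 groups. At P1 it stood at -0.57 ± 0.20 (FDR 0.026), called in 3 of 6 fits that left out a library. Elavl4 (HuD) changed by -0.95 ± 0.20 at P1 (FDR 0.00118) and by -0.68 ± 0.19 at P14 (FDR 0.00858), from 277 ± 22.5 CPM at E15.5 to 144 ± 33.9 and 172 ± 6.14. Elavl3 (HuC) and Elavl1 (HuR) did not pass the test at P14, at -0.13 ± 0.35 and 0.02 ± 0.27. Per length, Elavl3 was the most abundant of the 4 at each age, at 160 ± 49.8 RPKM at E15.5 and 146 ± 14.8 at P14 (SD, n = 3).

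In the CELF family, 3 of 6 members fell from E15.5 to P1 and none rose, where 20.9% of all genes fell and 25.4% rose. These were Celf3, Celf5 and Celf6, neuronal members of the branch that also holds Celf4. The level of Celf3 (mm9 chr3:94282753-94296115, plus strand) was 398, 378 and 373 CPM at E15.5, 112, 96.1 and 136 at P1, 213, 243 and 281 at P7, 185, 173 and 204 at P14, and 65.2, 187 and 164 in MB. It was lowest of the 4 ages at P1, at -1.74 ± 0.29 against E15.5 (FDR 0.000212), and at P14 it remained -1.03 ± 0.28 below E15.5 (FDR 0.0068). Celf5 and Celf6 had the same low point, at -1.55 ± 0.31 (FDR 0.00103) and -1.42 ± 0.24 (FDR 0.00026) at P1. At P14 Celf6 stood at -0.92 ± 0.24 (FDR 0.0048) and Celf5 at -0.79 ± 0.31 (FDR 0.0421), the latter called in 1 of 6 fits that left out a library. From P1 to P7, Celf3 and Celf6 were the 2 of 35 genes called, where 3.15% of all genes were, 1.4% higher and 1.74% lower. Their changes were 1.10 ± 0.28 (FDR 0.0477) and 0.98 ± 0.24 (FDR 0.0398). Each of these 2 calls held in only 1 of 6 fits that left out a library, and P1 and P7 lie in different counting sets. By transcript counts Rbfox3 was called from P1 to P7 as well, at 1.47 ± 0.35 (FDR 0.0388 over 14960 genes). Celf1, Celf2 and Celf4 were not called in any comparison of ages with all 15 libraries. Celf4, with 209.7, 245 and 148 CPM at E15.5 and 378, 322 and 355 at P14, had an FDR of 0.0719 for 0.81 ± 0.36. The ratio of Celf4 to Celf3 counts within a library was 0.398 to 0.647 at E15.5 and 1.74 to 2.04 at P14.

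Between P7 and P14, 2 of 35 genes were called, both lower, where 10.3% of all genes were called, 5.81% higher and 4.51% lower. These were Khdrbs3 (-0.92 ± 0.26, FDR 0.0384) and Elavl2 (-0.82 ± 0.20, FDR 0.0207), called in 0 and 2 of 6 fits that left out a library. Without the 4 libraries that stood apart, 14 genes were called between P7 and P14, 2 higher and 12 lower, where 35% of all genes were called, 16.3% higher and 18.7% lower. Between P1 and P14, 20 were called in that fit, 8 higher and 12 lower, where 41% of all genes were called, 19.8% higher and 21.2% lower. The 20 included Rbfox1 at 2.20, Celf4 at 1.65 and Mbnl2 at 1.08, and Srsf10 at -0.86 and Ptbp2 at -0.87. With the 6 libraries of P1 and P14 fitted alone, with all 3 of each age, 13 of 35 were called, 4 higher and 9 lower, where 27.6% of all genes were, 12.9% higher and 14.6% lower. In both settings more of these genes and more of all genes were called than with all 15 libraries.

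**Figure D3:**
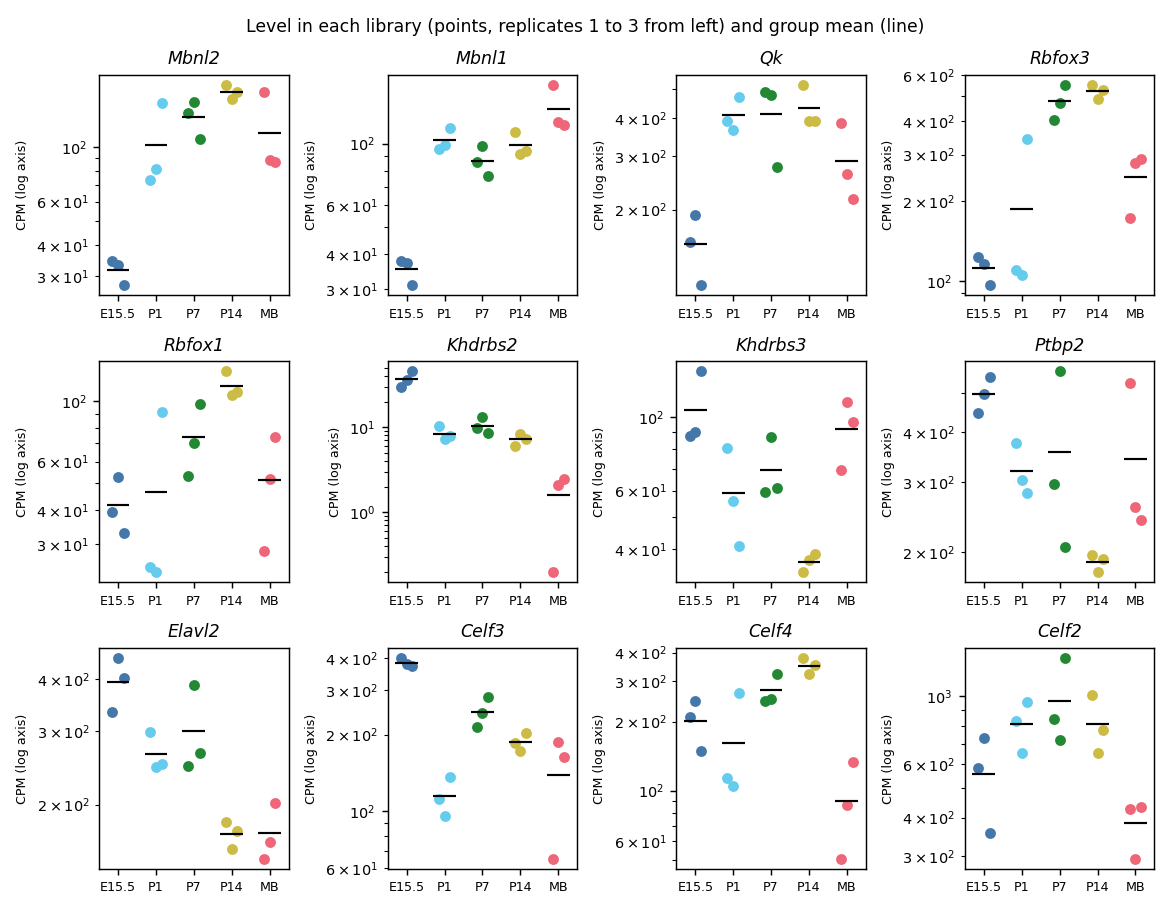
Level of 12 of the genes in each library (points, replicates 1 to 3 from left to right within a group, CPM on a log axis with its own range in each panel), with group means as lines. Mbnl1, Mbnl2 and Qk lie lowest at E15.5, Khdrbs2 lies highest at E15.5 and lowest in MB, and P1 replicate 3 lies above the other P1 libraries for Rbfox1, Rbfox3, Celf4 and Mbnl2.

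The SR proteins, which bind exonic enhancers and recruit the spliceosome, were seldom called between ages with all 15 libraries. Of the 7 SR genes with a usable gene row, Srsf7 alone was called from E15.5 to P14, at -0.86 ± 0.23 (FDR 0.00565), with 375 ± 123 CPM at E15.5 and 207 ± 18.5 at P14 (SD, n = 3). The P14 libraries also lay below the E15.5 libraries for Srsf10, at -0.56 ± 0.27, but this did not pass the test (FDR 0.0933). Srsf3 and Srsf5 were called in none of the 7 comparisons. The gene row of Srsf3 held 60.4 to 77.3% of the reads of its transcript and that of Srsf10 134 to 166%, so levels of these 2 are uncertain. Nova1 and Nova2, which bind YCAY clusters in neurons, Srrm4, the activator of neuronal microexons, and Msi1, a translational repressor of neural progenitors, were also called in none of the 7. Their change from E15.5 to P14 was -0.13 ± 0.21, -0.36 ± 0.49, -0.18 ± 0.35 and -0.37 ± 0.41. Without the 4 libraries that stood apart all 4 were called lower, at -0.37, -0.75, -0.56 and -0.57, and Srsf1, Srsf3, Srsf6, Srsf7 and Srsf10 were called lower from P1 to P14, at -0.59 to -0.86. For Nova2 the groups were wide, with 410.0, 459.7 and 182 CPM in the E15.5 libraries and 264, 156 and 508 at P7.

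Medulloblastoma cells were compared with precursors at P7 and at P14. Against P7, Khdrbs2, Celf4, Celf2 and Rbfox2 were lower by 1.93 to 6.59 times, Elavl2, Elavl4, Msi2, Celf3 and Celf6 were lower by less, and Mbnl1 and Srsf6 were higher. In all, 11 of 35 were called, 2 higher and 9 lower, where 34.5% of all genes were called, 13.7% higher and 20.7% lower. The median change of the 35 was -0.10, against 0.02 over all genes. The comparison shares its tumour samples with that against P14, in which 15 of 35 were called, 9 higher and 6 lower, where 50% of all genes were called, 22.9% higher and 27.2% lower. With upper-quartile scaling, which moves the median of all genes to -0.13, the latter split was 4 higher and 8 lower. Over all genes 48.2% were then called, 17.9% higher and 30.3% lower. Without the 4 libraries that stood apart, MB against P7 had 19 called, 6 higher and 13 lower, where 50.2% of all genes were called, 24.2% higher and 26.1% lower. In that setting Mbnl2 (-0.68), Qk (-0.97) and Ptbp2 (-0.74) were called lower and Msi1 (1.2) and Elavl1 (0.87) higher, and Celf3 (-0.33) and Celf6 (-0.15) were not called. There MB and P7 also lie in different counting sets, so these values cannot be told apart from an effect of set.

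Of the 35 genes, Khdrbs2 had the largest change in the tumour against P7. Its counts in MB were 5, 85 and 61 reads, and its change was -2.72 ± 0.51 against P7 (FDR 0.000672) and -2.18 ± 0.50 against P14 (FDR 0.00208). Without MB replicate 1, the lowest, the value against P7 remained called at -2.22. Khdrbs3 did not follow. Its MB libraries, at 69.1, 111 and 96.6 CPM, overlapped P7 (0.41 ± 0.26, FDR 0.245) and lay above all P14 libraries (1.33 ± 0.26, FDR 0.000673). Khdrbs1 was not called against P7 and rose by 0.49 ± 0.16 against P14 (FDR 0.0182), a call lost in 2 of 6 fits that left out a library and with upper-quartile scaling (0.34). The count ratio of Khdrbs2 to Khdrbs3 was 0.00287, 0.0187 and 0.0253 in the MB libraries and at least 0.127 in each library of normal cells. GABAergic interneuron and Purkinje markers were lower in MB as well, 6 of 7 and 5 of 7, and their part in the fall of Khdrbs2 was not tested.

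Among CELF genes, 4 of 6 fell in MB against P7 and none rose, where 20.7% of all genes fell and 13.7% rose. The level of Celf4 was 209.7, 245 and 148 CPM at E15.5, 113, 105 and 266 at P1, 246, 251 and 322 at P7, 378, 322 and 355 at P14, and 50.4, 86.3 and 134 in MB. Every MB library lay below every P7 and P14 library, with changes of -1.60 ± 0.36 (FDR 0.00298) and -1.96 ± 0.37 (FDR 0.000431). The level of Celf2 (mm9 chr2:6460751-6642661, minus strand), a regulator with roles in neuronal splicing and message stability, was 583, 729 and 357 CPM at E15.5, 830.5, 651 and 960.1 at P1, 846, 719 and 1332 at P7, 1007, 652 and 778 at P14, and 427, 293 and 435 in MB. Its change was -1.33 ± 0.30 against P7 (FDR 0.00273) and -1.08 ± 0.30 against P14 (FDR 0.00706). Within the first counting set MB is replicate 1 alone, the library farthest from its group, so no call is read there; the change of Celf4 was -2.39 and that of Celf2 -1.13. Celf3 (-0.83 ± 0.28, FDR 0.0329) and Celf6 (-0.63 ± 0.24, FDR 0.0495) fell against P7, but these 2 calls were lost in 3 and 4 of 6 fits that left out a library, and without MB replicate 1 Celf3 stood at -0.49. Granule neuron markers fell in 6 of 10 cases in MB against P7, and precursor markers rose in 6 of 8; their part in these falls was not tested.

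All 3 RBFOX genes were called lower in MB than at P14, where 27.2% of all genes were. Rbfox2 stood at -0.82 ± 0.20 (FDR 0.00346), Rbfox3 at -1.08 ± 0.36 (FDR 0.0214) and Rbfox1 at -1.15 ± 0.45 (FDR 0.0465). The calls for Rbfox3 and Rbfox1 held in 4 and 1 of 6 fits that left out a library, that for Rbfox2 in all 6. Against P7, Rbfox2 was the one called, at -0.95 ± 0.20 (FDR 0.00183), with 231, 277 and 338 CPM in MB and 549, 438 and 646 at P7. Rbfox3 did not overlap between the 2 groups but missed the threshold, at -0.95 ± 0.36 (FDR 0.0531). By transcript counts it was called, at -1.02 ± 0.35 (FDR 0.0345 over 14960 genes). Its gene row held a median of 109% of the reads of its transcript in the first counting set and 119% in the other. Over single libraries this share ran from 102 to 122%, so gene levels of Rbfox3 are uncertain to that extent. The sets hold different ages, and the part of the set in this difference was not tested. The tumour did not have the low Rbfox3 to Rbfox2 ratio of E15.5: it was 0.75 to 1.01 in MB, where P7 had 0.74 to 1.07.

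**Figure D4:**
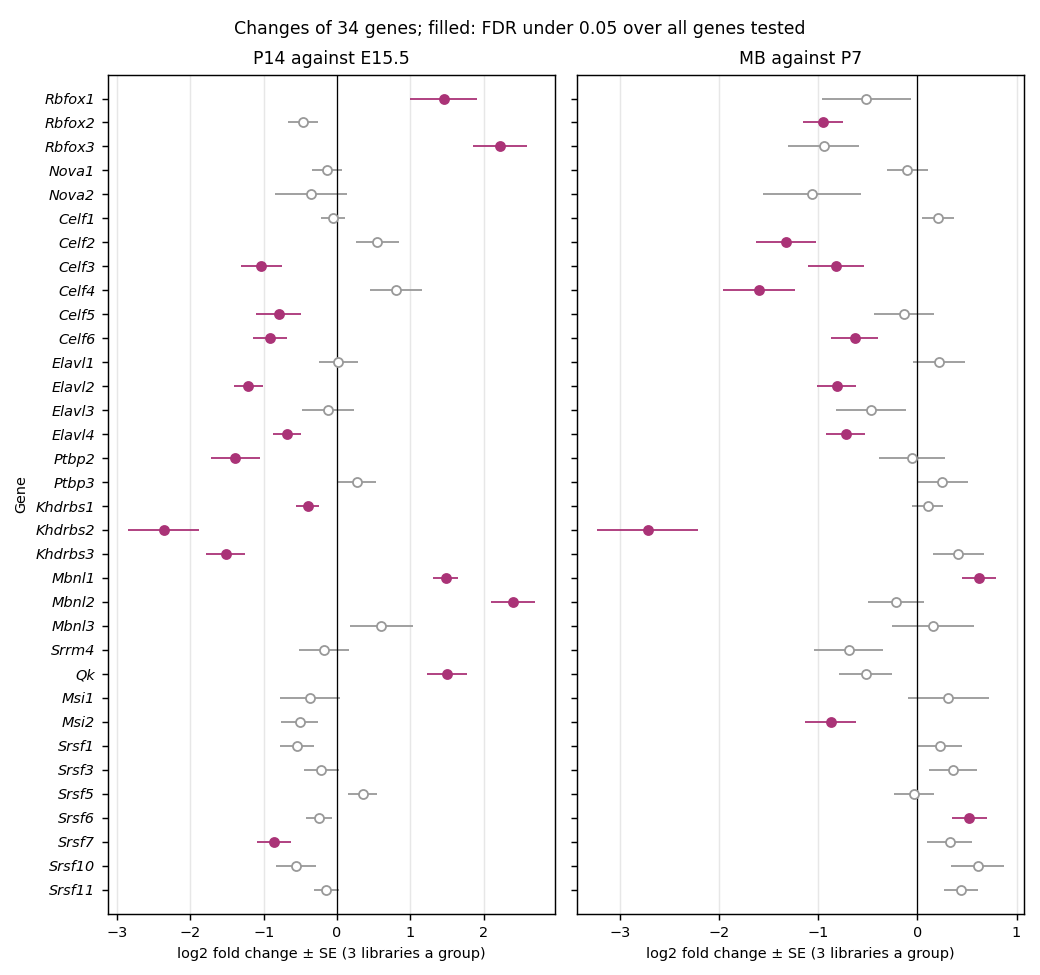
Log2 fold change with its SE (edgeR, 3 libraries a group) of 34 genes for P14 against E15.5 and for MB against P7; filled points were called at FDR under 0.05 over all genes tested, and zero is marked by a line. Mbnl2 at 2.40 and Khdrbs2 at -2.36 are the extremes with age, and Khdrbs2 at -2.72 is the extreme in the tumour.

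Mbnl1 rose in MB against P7 by 0.62 ± 0.17 (FDR 0.0096), with 163, 120.1 and 117 CPM in MB above all P7 libraries. Against P14 it stood at 0.43 ± 0.17 (FDR 0.0432), called in 3 of 6 fits that left out a library. Microglia and macrophage markers summed to 511, 223 and 192 CPM in MB and 61.5 to 163 at P7, and 6 of 9 rose and 0 fell. Of 10 astroglial markers 2 rose and 6 fell against P7, and of 10 oligodendrocyte-lineage markers 2 rose and 7 fell. Their part in the Mbnl1 values was not tested. Mbnl2 was not called against P7, at -0.22 ± 0.28, and MB replicate 1 stood apart at 167 CPM against 88.9 and 86.6. The ratio of Mbnl2 to Mbnl1 was 0.74 to 1.02 in MB, below the 1.4 to 1.6 of P7. For Mbnl3 the direction in MB rested on replicate 1 (18.9 CPM against 5.01 and 5.24): 0.16 with all libraries and -0.76, called, without it. Elavl2 and Elavl4 fell against P7, at -0.81 ± 0.20 (FDR 0.00449) and -0.72 ± 0.19 (FDR 0.00896). Msi2, a paralogue of Msi1, fell by 0.88 ± 0.25 (FDR 0.0139), a call held in 4 of 6 fits that left out a library. In the first counting set, with MB replicate 1 alone and no call read, the values were -0.97 for Elavl2, -0.56 for Elavl4 and -0.61 for Msi2. Qk was not called against either age; with upper-quartile scaling it was at -0.73 against P14 and called.

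The Ptbp1 model was higher in MB than in any library of normal cells. It had 90.5, 78.7 and 83 CPM in MB, and the highest normal library, P7 replicate 3, had 57.8. It rose by 0.91 ± 0.20 against P7 (FDR 0.00232) and by 1.30 ± 0.20 against P14 (FDR 8.7e-05) over 16378 models, of which 33.5% and 48.9% were called and 13.2% and 22.3% were higher. Both calls held in each fit that left out 1 library. Ptbp2 did not differ from P7 beyond its error (-0.06 ± 0.33), and its rise against P14 (0.85 ± 0.33, FDR 0.0435) was 0.40 and not called without MB replicate 1. The count ratio of Ptbp2 to the Ptbp1 model was 5.66, 3.21 and 2.82 in MB. Dividing-cell markers were higher in MB than at P14 in 10 of 10 cases and than at P7 in 4 of 10, and their part in the Ptbp1 values was not tested.

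SR genes rose in MB against P14 in 5 of 7 cases and none fell, where 22.9% of all genes rose and 27.2% fell. Srsf10 rose by 1.06 ± 0.27 (FDR 0.00426), Srsf6 by 0.77 ± 0.18 (FDR 0.00238), Srsf1 by 0.67 ± 0.23 (FDR 0.0238), Srsf7 by 0.65 ± 0.23 (FDR 0.0259) and Srsf11 by 0.62 ± 0.17 (FDR 0.00664). Srsf6, Srsf10 and Srsf11 held in each fit that left out 1 library, while Srsf1 and Srsf7 held in 1 of 6 each and were lost with upper-quartile scaling (0.53 and 0.51). In the transcript table, Srsf2 was higher too, at 0.52 ± 0.19 (FDR 0.0363 over 14960 genes). Against P7, Srsf6 alone of these was called, at 0.52 ± 0.18 (FDR 0.0336), in 2 of 6 such fits. Among the 33 genes with a transcript, in levels per length at P14, Rbfox3, Elavl3, Srsf3 and Srsf6 followed Srsf2, at 155, 146, 136 and 108 RPKM, and in MB Srsf2, Srsf6, Srsf3 and Srsf7 were highest, at 323, 184, 163 and 152. Their order within each set was not tested.

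**Figure D5:**
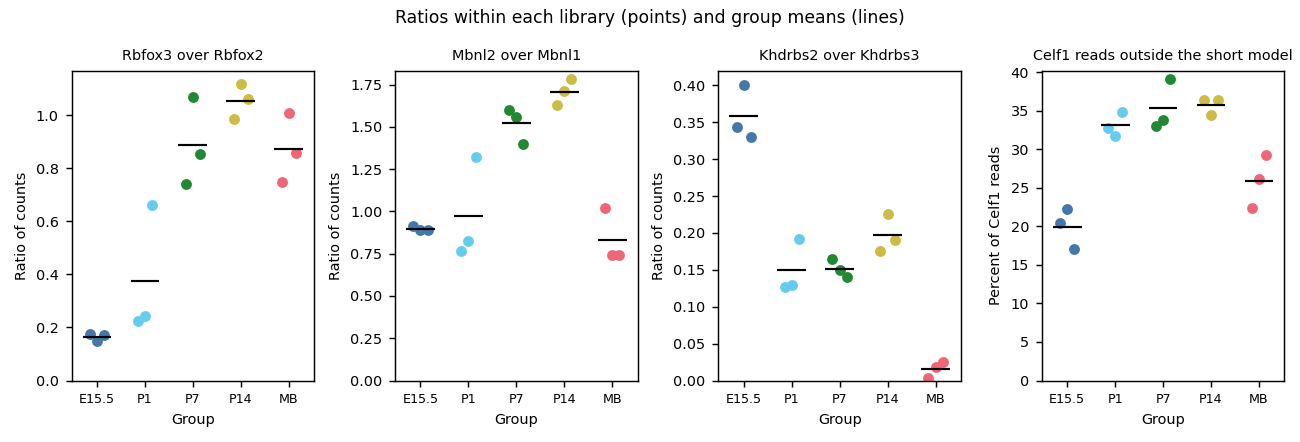
Count ratios of 3 paralogue pairs within each library, and the percent by which reads of the short Celf1 model fell below those of the long model. Points are replicates 1 to 3 from left to right, lines are group means, and axes start at 0. The ratio of Rbfox3 to Rbfox2 is 0.149 to 0.175 at E15.5 and 0.985 to 1.12 at P14, and that of Khdrbs2 to Khdrbs3 is at most 0.0253 in MB.

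A wider list of 65 other splicing and RNA-binding genes gave 54 that were tested. From E15.5 to P14, 5 of 54 rose and 16 fell, where 26.7% and 24.2% of all genes did. The largest were Rbm47 (4.56 ± 1.29, FDR 0.00833) and Rbm24 (2.45 ± 0.35, FDR 4.3e-05) upward, and Raver2, a PTB-binding corepressor (-1.33 ± 0.21, FDR 9.5e-05), and Nono, a paraspeckle protein (-1.22 ± 0.21, FDR 0.000213), downward. Rbm47 is known from epithelia, and its P1 level varied with the choroid plexus markers: 0.429, 11.9 and 5.16 CPM beside summed choroid markers of 300, 10400 and 3930 CPM, and their part in its rise was not tested. From P1 to P14, Raver2 alone was called (-0.82 ± 0.20, FDR 0.0261), where 8.94% of all genes were. In MB against P7, 6 of 54 rose and 3 fell, where 13.7% and 20.7% of all genes did. The rises were led by Rbm38, a p53 target (1.78 ± 0.31, FDR 0.000336), and Hnrnpa0 (0.98 ± 0.34, FDR 0.0363). The falls were led by Raver2 (-0.84 ± 0.20, FDR 0.00462) and Srsf12 (-0.80 ± 0.24, FDR 0.0175). Against P14, 27 of 54 rose in MB and 3 fell, where 22.9% and 27.2% of all genes did, with a median change of 0.48 against 0.01 over all genes.

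Genes known as splicing or stability targets of these proteins moved in both directions from E15.5 to P14 in total level. The synaptic genes Snap25 (2.52 ± 0.41, FDR 0.000157) and Grin1 (1.39 ± 0.46, FDR 0.0197) rose, as did Numb (0.46 ± 0.17, FDR 0.0324), while the cytoskeletal genes Tubb3 (-2.27 ± 0.37, FDR 0.000136) and Mapt (-1.44 ± 0.26, FDR 0.000284) fell. From P1 to P14, Grin1 (1.54 ± 0.46, FDR 0.0496) and Snap25 (1.53 ± 0.40, FDR 0.0313) rose and Rest, the repressor of neuronal genes, fell (-0.72 ± 0.21, FDR 0.0461). In MB against P7, none rose and 4 fell, where 13.7% of all genes rose and 20.7% fell. The 4 were Grin1 (-2.51 ± 0.48, FDR 0.000783), Mapt (-1.58 ± 0.26, FDR 0.000205), Rest (-0.94 ± 0.21, FDR 0.00291) and Gabbr1 (-0.71 ± 0.17, FDR 0.00411). Gene counts do not show which exons these transcripts kept, and exon use was not analysed here.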

How the data were processed

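RNA from 15 mouse cerebellar samples was sequenced, and the authors deposited whole-number read counts for each library per gene, per start-site model and per transcript. Per the submitters' processing notes the tools were Trimmomatic, TopHat, StringTie and HTSeq with mm9; versions, strand setting and filters are not given in the sources used here. From the gene counts, edgeR 4.0.16 (limma 3.58.1, R 4.3.3) was used: filterByExpr (10 reads in a library, 15 in all), TMM scaling, 1 mean per group, all 15 libraries, 10 residual degrees of freedom, quasi-likelihood tests, Benjamini-Hochberg adjustment over 15259 genes. CPM use TMM-scaled totals. SE is the log2 change divided by the root of F. Summary lines that name no gene were left out: reads with no feature came to 14.08 to 29.23% of all lines and non-unique alignments to 22.88 to 44.557%. The script was tested on simulated counts.

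Levels per length use the transcript with most reads. Promoters come from RefSeq (GRCm38.p6) and 30 members had an entry; gene spans are mm9 and the builds were not mixed. Values in every library are given for members called with at least 2-fold change and no overlap in P14 against E15.5, P14 against P1 or MB against P7, with a paralogue that went the other way; of the other splicing genes, the 2 largest calls in each direction are named. The members and lists were chosen with earlier results of these data known. Alternatives were DESeq2 1.42.0, upper-quartile scaling, no filter, a replicate block, the other 2 tables, the groups compared alone, each counting set alone and leaving out libraries. No member had 2 start-site models, so start sites were not compared. Correlations of deviations between libraries of the same replicate number ran from -0.312 to 0.332. Those of MB against P14 were all positive, at 0.0376 to 0.144. With 3 libraries a group they cannot exclude pairing, and the main fit did not pair samples. Celf4 was left out of the promoter windows whatever the distance of its start. Among the known targets, 1 gene of the list is not reported here.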

Additional observations from a re-analysis of the deposited data

How the results depend on the processing

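The lowest count of a usable gene row in a library was 5 (Khdrbs2 in MB replicate 1) and the next lowest gene, Mbnl3, had at least 54. Values for single genes were recomputed 3766 times, and 3385 stayed on the same side of the threshold. Of these, 796 were called both times with their direction kept. The other 2589 were called neither time, and 182 of them changed sign. In 222 cases the value passed the threshold newly, in 148 it no longer passed it, and in 11 a value called in at least 1 of the 2 fits changed sign. Counts of genes called that moved by over 1.5 times were as follows; the cause was not tested. With upper-quartile scaling, P7 against P1 had 0 and P14 against P1 had 2, where 3.42% and 9.14% of all genes were called. With the replicate block, P7 against P1 had 0, P14 against P7 had 1 and P14 against P1 had 3. There 1.63%, 8.09% and 8.49% of all genes were called, and the other counts stayed within 1.5 times. In the start-site table, with 25 genes tested, P14 against P7 had 1, P14 against P1 2, MB against P7 7, MB against P14 9 and the test over 4 ages 10. In that order, 10.8%, 9.02%, 34.5%, 50.7% and 55.7% of all genes were called. With the compared groups alone, P7 against P1 had 1 and P14 against P1 13, where 1.39% and 27.6% of all genes were called. In the counting set that holds P1 and P14, P14 against P1 had 16, where 30.3% of all genes were called. With DESeq2, P7 against P1 had 4 and P14 against P1 had 5, where 7.92% and 15.7% of all genes were called. Without P1 replicate 3, P7 replicate 3 and MB replicate 1 together, chosen after seeing the data, P7 against P1 had 8, P14 against P7 had 9 and P14 against P1 had 16. There 12.3%, 20.9% and 29.0% of all genes were called. With E15.5 replicate 3 left out as well, also chosen after seeing the data, P7 against P1 had 12, P14 against P7 14, P14 against P1 20, P14 against E15.5 25, MB against P7 19 and the test over 4 ages 32. The share of all genes called went up too in that fit. It was 23.3% for P7 against P1, 35.0% for P14 against P7 and 41.0% for P14 against P1. For P14 against E15.5 it was 61.7%, for MB against P7 50.2% and over 4 ages 76.8%. The 25 and the 32 include Srsf2.

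When 1 library was left out, the counts ranged from 11 to 13 for P1 against E15.5, 0 to 6 for P7 against P1, 0 to 4 for P14 against P7, 0 to 8 for P14 against P1, 14 to 17 for P14 against E15.5, 8 to 13 for MB against P7, 9 to 15 for MB against P14 and 12 to 21 over 4 ages. The 6 for P7 against P1 and the 8 for P14 against P1 came without P1 replicate 3, and the 4 for P14 against P7 without P7 replicate 3. Shares of all genes called are not set beside these ranges, so the ranges are not read as a result about these genes. Those against E15.5 include Srsf2. Among values called in either fit, those that changed sign were Srsf2 in the transcript table (-0.040 at P1 and -0.15 at P14 against E15.5, and 0.52 in MB against P14), Mbnl3 in MB against P7 without MB replicate 1 (-0.76, the lowest of its values with 1 library left out, the highest being 0.47), and, without the 3 libraries together, Mbnl3 (-0.83) and Ptbp3 (-0.39) in MB against P7 and Rbfox1 in P1 against E15.5 (-0.78). Without the 4 libraries these were -0.78, -0.35 and -0.96, and Celf5 in MB against P7 (0.43) joined them. The comparison of start-site use gave 0 genes in both settings because no gene had more than 1 model.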

Other observations

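Celf1 was not called in any comparison, but its 2 transcript models did not keep one ratio. The shorter model lacks a stretch of 3163 bases (mm9 chr2:90853560-90856722, plus strand) that lies past the coding end of the long model at 90853522 and inside its end at 90859654. The percent by which reads of the short model fell below those of the long model was 20.4, 22.2 and 17.1 in the E15.5 libraries, 32.8, 31.7 and 34.8 at P1, 33.0, 33.8 and 39.1 at P7, 36.4, 34.4 and 36.4 at P14, and 22.4, 26.1 and 29.3 in MB. This value compares the counts of the models and does not show where the reads lay. The E15.5 libraries lay below all others, and the MB libraries lay between E15.5 and the postnatal ages. The long model had 5111 to 18360 reads per library. The gene was chosen after its values were seen, so no test is given.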
